A study of Mus musculus with 14 samples.

Results

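The genes described here carried acetylated lysine 9 of histone H3 (H3K9ac) in both obstructed kidneys without ACSS2 and in neither obstructed wild type (WT) kidney. A gene counted as marked when an H3K9ac peak overlapped the 3 kb on either side of either end of the gene. Of 47042 autosomal RefSeq genes, 18016 were marked in at least 1 of the 4 libraries of this comparison and 13670 in all 4. By this rule 315 genes, or 1.75% of the 18016, were marked only in ACSS2-/- UUO, and 29 genes, or 0.161%, only in WT UUO. Of 28666 merged peak regions, 860 (3%) were found only in ACSS2-/- UUO and 106 (0.37%) only in WT UUO. As the rule itself sorts the genes, these counts are a description and carry no test.

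The study compared H3K9ac and crotonylated lysine 9 (H3K9cr) by ChIP-seq in whole mouse kidneys. WT UUO kidneys came from WT mice with unilateral ureteric obstruction (UUO), a surgical model of kidney fibrosis, and ACSS2-/- UUO kidneys from obstructed mice in which Acss2 was knocked out with CRISPR/Cas9, with 2 H3K9ac and 2 H3K9cr libraries in each group. WT control and ACSS2-/- control kidneys had 1 H3K9ac and 2 H3K9cr libraries each. The labels give neither age nor sex, and they give the antibody another catalogue number in every group. The labels do not say that replicates came from separate mice. The peak names hold a different number in each replicate of every pair, but the labels do not say that it numbers mice.

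ACSS2 makes acetyl-CoA from acetate and can also make crotonyl-CoA from crotonate, and both are donors for the acylation of histones. H3K9ac and H3K9cr lie mostly at the starts of active genes and at enhancers. In an obstructed kidney the tubular epithelium loses its transport and metabolic program while fibroblasts, myofibroblasts and leukocytes gain in number.

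The genes marked only in ACSS2-/- UUO included genes of contractile stromal cells (Acta2, Tagln, Myh11, Tnc and Meox1), transporters and enzymes of the tubular epithelium (Slc5a12, Slc13a3, Slc7a9, Acsm1, Acox2 and Abat), Egf, and the cytokine and receptor genes Il18, Il1r2 and Cx3cr1. Fasl, the ligand by which cytotoxic lymphocytes kill through Fas, was marked only in WT UUO. Of the 315 genes, 226 (71.7%) also carried H3K9ac in both control kidneys. In whole kidneys, a smaller number of cells of a type and less of the mark per cell cannot be told apart.

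The H3K9ac libraries did not yield equally. Autosomal peaks numbered 15673 and 18194 in WT UUO and 16942 and 24130 in ACSS2-/- UUO, so that ACSS2-/- UUO replicate 2 stood above the others and the groups overlapped. The mean was 20536 ± 5083 in ACSS2-/- UUO and 16934 ± 1783 in WT UUO (SD, n = 2), a difference of 3602.5 peaks (exact two-sided permutation test, p = 0.667, with 0.333 the smallest p that 2 against 2 libraries allow). When every list was cut to its 15673 longest peaks, genes marked only in ACSS2-/- UUO fell in number from 315 to 205 and those marked only in WT UUO rose from 29 to 105. Of the 315 genes, 160 remained. The same cut gave 457 regions against 260. ACSS2-/- UUO replicate 2 also held 13 peaks on the Y chromosome, where the other 3 libraries held 0, and the part of sex in the result was not tested.

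The numbers kept in the peak names differ from the replicate numbers in ACSS2-/- UUO. For H3K9ac replicate 1 carries the number 2 and replicate 2 the number 3, and for H3K9cr replicate 1 carries 3 and replicate 2 carries 2. Peaks on the Y chromosome were in the library numbered 3 for either mark, 13 in H3K9ac and 14 in H3K9cr, so that the same replicate number in the 2 marks need not be the same mouse. In WT UUO the numbers 3 and 2 stand for H3K9cr replicates 1 and 2, and 1 and 2 for those of H3K9ac. Acss2 itself, the targeted gene, had a peak in all 4 libraries, of 869 and 1100 bp in WT UUO and 760 and 1229 bp in ACSS2-/- UUO. A mark near its ends does not show whether the gene is deleted.

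The promoters below, of 300 bases, belong to 5 members. Each promoter was overlapped by a peak in both ACSS2-/- UUO libraries and in neither WT UUO library. An overlap of at least 1 bp counted as covered, so the start itself need not lie under a peak. The promoters are shown since this is the stretch where the mark differed. Acsm1 encodes a mitochondrial medium-chain acyl-CoA synthetase of the same superfamily as ACSS2. Slc7a9 encodes a subunit of the cystine and dibasic amino acid transporter, Slc51b a subunit of a bile acid and steroid transporter, Slc6a20a a proline transporter, and Il18 a cytokine of the IL-1 family. The sequences run from 250 bases before to 50 after the start, from RefSeq on GRCm38.p6, and capitals mark TATAAA on either strand, the core of the TATA box.
Acsm1, chr7:119617562-119617861, plus strand: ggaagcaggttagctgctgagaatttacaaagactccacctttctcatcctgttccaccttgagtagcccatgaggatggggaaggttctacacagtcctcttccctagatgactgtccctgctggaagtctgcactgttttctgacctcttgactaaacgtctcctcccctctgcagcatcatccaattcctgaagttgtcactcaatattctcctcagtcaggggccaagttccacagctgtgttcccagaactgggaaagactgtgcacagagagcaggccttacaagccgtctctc
Slc7a9, chr7:35448842-35449141, plus strand: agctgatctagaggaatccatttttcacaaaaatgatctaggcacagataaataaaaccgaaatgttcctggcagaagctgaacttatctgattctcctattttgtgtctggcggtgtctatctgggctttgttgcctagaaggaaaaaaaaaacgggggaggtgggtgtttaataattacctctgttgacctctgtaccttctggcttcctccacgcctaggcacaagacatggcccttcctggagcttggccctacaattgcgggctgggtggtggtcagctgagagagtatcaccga
Slc51b, chr9:65422724-65423023, minus strand: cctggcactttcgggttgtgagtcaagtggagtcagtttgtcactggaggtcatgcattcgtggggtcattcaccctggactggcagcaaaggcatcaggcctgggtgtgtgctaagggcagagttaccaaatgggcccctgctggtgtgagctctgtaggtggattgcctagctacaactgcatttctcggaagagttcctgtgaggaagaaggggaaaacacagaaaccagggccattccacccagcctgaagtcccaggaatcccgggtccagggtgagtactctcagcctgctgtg
Slc6a20a, chr9:123678783-123679082, minus strand: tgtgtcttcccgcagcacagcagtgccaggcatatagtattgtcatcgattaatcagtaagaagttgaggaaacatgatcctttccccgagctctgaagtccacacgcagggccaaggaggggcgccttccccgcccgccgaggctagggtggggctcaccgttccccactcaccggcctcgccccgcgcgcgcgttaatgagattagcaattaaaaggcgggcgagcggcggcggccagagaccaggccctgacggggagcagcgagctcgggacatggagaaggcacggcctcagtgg
Il18, chr9:50554450-50554749, plus strand: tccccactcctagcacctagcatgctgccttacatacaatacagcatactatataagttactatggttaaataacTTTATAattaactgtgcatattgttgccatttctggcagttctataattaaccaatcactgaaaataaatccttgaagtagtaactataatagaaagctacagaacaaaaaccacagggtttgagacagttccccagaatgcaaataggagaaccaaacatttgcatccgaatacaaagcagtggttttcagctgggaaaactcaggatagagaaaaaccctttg

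TATAAA was found at 1 place in the Il18 promoter and at 0 in the other 4. Over all promoters of the table, 13.6% of 31396 held it. Of the 392 promoters covered only in ACSS2-/- UUO 7.40% did, and of the 8165 covered in all 4 libraries 5.44%. The Acsm1, Slc7a9, Slc51b and Il18 promoters were poor in CpG, with 2, 6, 4 and 1 CpG in 300 bases, and that of Slc6a20a held 25. The median was 19 CpG in promoters covered only in ACSS2-/- UUO, 23 in the 8165 covered in all 4 libraries and 4 in the 18576 covered in none. CAAAGT, a core of sites for nuclear receptors such as HNF4A, was in 10.5% of the promoters covered only in ACSS2-/- UUO. It was in 10.4% of those covered in all 4 libraries and in 14.4% of all. The CArG box, the site of serum response factor in contractile genes, was in 0.765% (3 promoters), 1.11% and 1.57%, in the same order. Most promoters of the table were covered in none of the 4 libraries. Of the 315 genes, 207 had a promoter in the table, and at 55 of them a promoter was itself covered only in ACSS2-/- UUO.

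Contractile and matrix genes were the most frequent of the cell type lists. Of 16 fibroblast and myofibroblast genes with H3K9ac in at least 1 of the 4 libraries, 5 (31.2%) were marked only in ACSS2-/- UUO, 4 in all 4 and 0 only in WT UUO, beside 1.75% of all genes. Acta2, which encodes the smooth muscle actin of myofibroblasts, had no H3K9ac peak in either WT UUO library, and its longest peak was 319 and 442 bp in the ACSS2-/- UUO libraries. In control kidneys Acta2 had a peak of 578 bp in WT and 981 bp in ACSS2-/-, longer than in both ACSS2-/- UUO libraries. H3K9cr was present at Acta2 in all 4 obstructed kidneys, with peaks of 845 and 1437 bp in WT UUO and 1930 and 1264 bp in ACSS2-/- UUO, and the groups overlapped.

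Tagln, the actin-binding protein transgelin, had H3K9ac peaks of 418 and 1613 bp in ACSS2-/- UUO and was marked in both controls. Myh11, the smooth muscle myosin heavy chain, had peaks of 335 and 921 bp in ACSS2-/- UUO and none in either control. Tnc, the matrix protein tenascin C, had 338 and 1383 bp, with none in the WT control and 587 bp in the ACSS2-/- control. Meox1, a homeobox factor of activated fibroblasts, had 418 and 1264 bp. At each of these 4 genes the peak of replicate 2, the library with the most peaks, was the longer. With the lists cut to equal numbers of peaks, 2 genes of the list, Tagln and Meox1, stayed marked only in ACSS2-/- UUO and Acta2, Myh11 and Tnc did not.

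A list of 20 smooth muscle genes, written after these values were seen, held 15 with H3K9ac in at least 1 library. Acta2, Tagln and Myh11 (20%) were marked only in ACSS2-/- UUO, 7 were marked in all 4 libraries and 0 only in WT UUO. Over all genes with a peak, 1.75% were marked only in ACSS2-/- UUO. These 3 genes are also in the fibroblast and myofibroblast list, so the added list is no independent support. Lmod1 and Myl9, which serve actin filaments and myosin in the same cells, were among those marked in all 4. Smtn and Srf, which encode smoothelin and serum response factor, were so as well. None of the 22 collagen chain genes with a peak was marked only in 1 genotype, and 12 were marked in all 4 libraries. Over all 18016 genes with a peak, 1.75% were marked only in ACSS2-/- UUO, 0.161% only in WT UUO and 13670 genes in all 4. For 22 genes, none is near the first 2 shares.

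**Figure D1:**
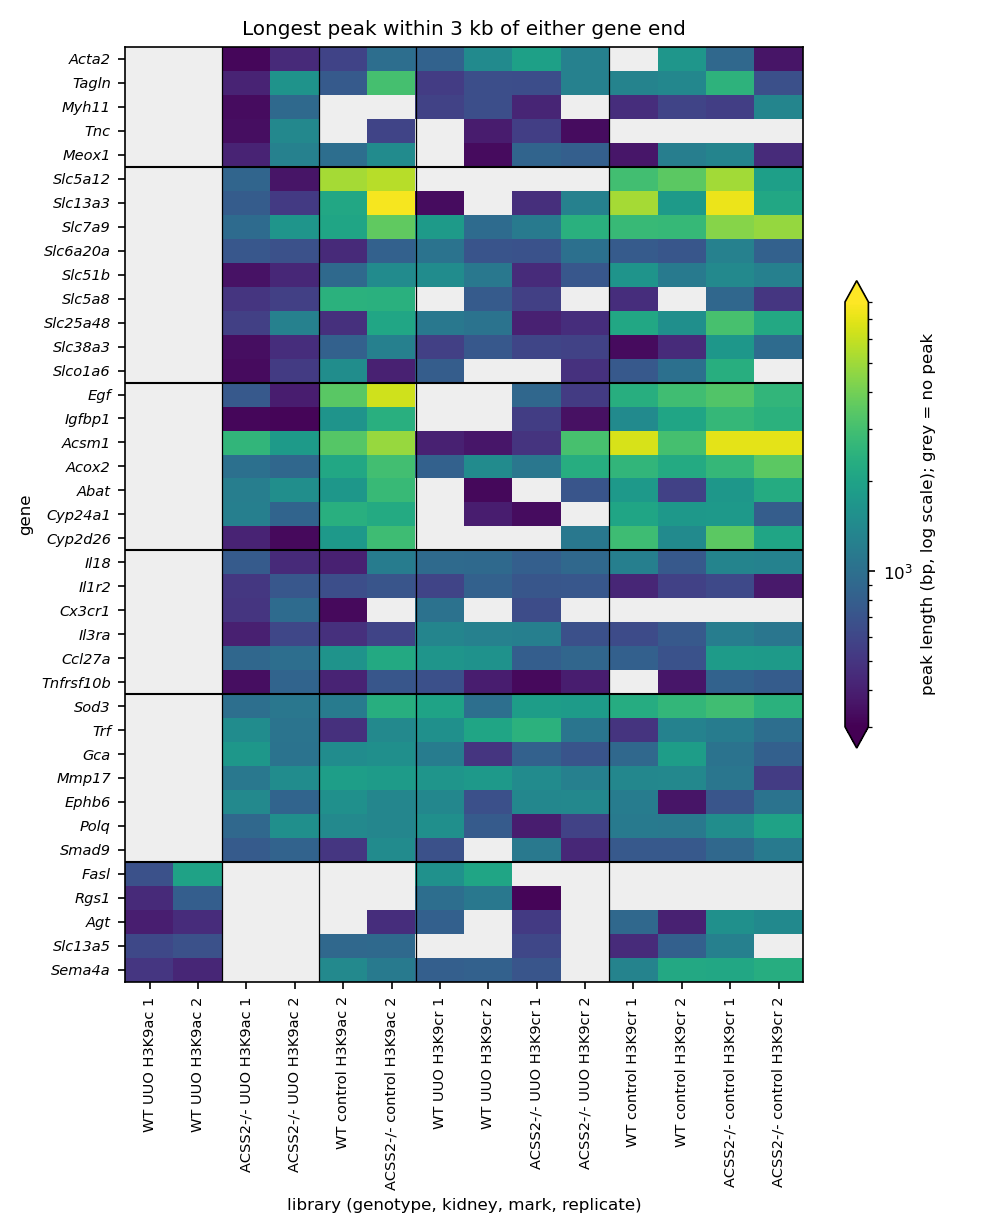
Length of the longest peak (bp, colour on a log scale, grey for no peak) within 3 kb of either end of named genes, in rows grouped by role, in the 14 libraries in columns. The first 2 columns are empty for every gene above the last line and filled for Fasl, Rgs1, Agt, Slc13a5 and Sema4a below it, as the rule sets, while most of the other 10 columns are filled in both blocks.

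Of 263 solute carrier genes with H3K9ac in at least 1 of the 4 libraries, 14 (5.32%) were marked only in ACSS2-/- UUO. The share over all genes with a peak was 1.75%. Of the family, 188 were marked in all 4 libraries and 1, Slc13a5, only in WT UUO. Slc5a12, a lactate transporter of the proximal tubule, had H3K9ac peaks of 880 and 362 bp in ACSS2-/- UUO and of 5115 and 5591 bp in the WT and ACSS2-/- controls. The mark at Slc5a12 was thus far shorter in obstructed than in control kidneys of either genotype. H3K9cr was absent from Slc5a12 in all 4 obstructed kidneys and present in all 4 controls, from 1925 to 5074 bp.

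Slc13a3, a dicarboxylate transporter, had peaks of 781 and 526 bp in ACSS2-/- UUO and of 2141 and 7602 bp in the controls. Slc7a9 had 945 and 1656 bp in ACSS2-/- UUO, and H3K9cr in all 8 libraries. Slc5a8, a transporter of lactate and short-chain fatty acids, had 498 and 557 bp. Slc6a20a had 734 and 674 bp in ACSS2-/- UUO and 441 and 835 bp in the controls, a range that held both values. The other solute carriers were Slc51b, Slc25a48 of the mitochondrial carriers, Slc38a3 for glutamine, Slc44a3 of the choline transporter family, Slc29a2 for nucleosides, Slc52a3 for riboflavin, Slc17a7 for vesicular glutamate and Slco1a6 for organic anions, with peaks from 332 to 1262 bp. The family count also takes in Slc6a19os, a noncoding gene antisense to a neutral amino acid transporter. At Slc29a2, Slc38a3, Slc17a7 and Slc52a3 a WT UUO peak lay within 10 kb, from 3202 to 9307 bp. With equal numbers of peaks 6 genes of the family were marked only in ACSS2-/- UUO, against 14. Slc7a9, Slc6a20a, Slc25a48, Slc44a3 and Slc52a3 stayed marked only in ACSS2-/- UUO, and the other members of the family did not.

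Of the 21 proximal tubule markers with a peak, 2 (9.52%), Slc5a12 and Slc13a3, were marked only in ACSS2-/- UUO, beside 1.75% of all genes with a peak. In all 4 libraries 10 were marked. With equal numbers of peaks 1 gene of the list was marked only in ACSS2-/- UUO, and neither Slc5a12 nor Slc13a3 stayed so. Counted by library, 10 and 13 of all 28 proximal tubule markers carried H3K9ac in WT UUO and 17 and 18 in ACSS2-/- UUO, without overlap (2 against 2 libraries cannot give a p under 0.333), and 27 and 23 in the WT and ACSS2-/- controls. With H3K9cr the counts were 18 and 12 in WT UUO and 22 and 18 in ACSS2-/- UUO. Fibroblast and myofibroblast markers also counted higher, with 5 and 9 of 19 in WT UUO and 12 and 16 in ACSS2-/- UUO for H3K9ac, but 15 and 14 against 16 and 10 for H3K9cr. The H3K9ac counts come from the libraries that the rule used and hold its members, so the separation is not independent of the rule. Slc5a12 and Slc13a3 are in the proximal tubule list, and Acta2, Meox1, Myh11, Tagln and Tnc are in the fibroblast and myofibroblast list. Among distal nephron markers the H3K9ac counts touched, with 10 and 13 of 24 against 13 and 15. Of all autosomal genes, 31.2% and 33.2% carried H3K9ac in WT UUO and 32.0% and 36.7% in ACSS2-/- UUO, so that the groups overlapped. In the WT and ACSS2-/- controls 36.2% and 39.5% did. For H3K9cr the shares were 40.5% and 38.7% in WT UUO and 40.1% and 36.9% in ACSS2-/- UUO. The part of cell composition in the marker counts was not tested.

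Egf, the growth factor made by the distal tubule, showed the same pattern in both marks. It had no H3K9ac and no H3K9cr peak in any WT UUO library, H3K9ac peaks of 752 and 388 bp and H3K9cr peaks of 902 and 534 bp in ACSS2-/- UUO, and H3K9ac peaks of 3437 and 6339 bp in the WT and ACSS2-/- controls. H3K9cr in the 4 controls ran from 2354 to 3260 bp, so that both marks were longest in control, shorter in ACSS2-/- UUO and absent in WT UUO. The noncoding gene 6330410L21Rik shares these peaks. The nearest WT UUO peak of H3K9ac lay inside Egf, 30002 bp from its end. Igfbp1, a binding protein of insulin-like growth factors, was the only other gene of the 315 with this pattern in both marks, with H3K9ac peaks of 319 and 315 bp and H3K9cr peaks of 546 and 349 bp in ACSS2-/- UUO. Across the genome 142 of 20904 genes with H3K9cr in the obstructed kidneys (0.679%) had H3K9cr only in ACSS2-/- UUO and 341 (1.63%) only in WT UUO. Of the 315 genes these were 3 and 4. With equal numbers of peaks neither Egf nor Igfbp1 stayed marked only in ACSS2-/- UUO.

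**Figure D2:**
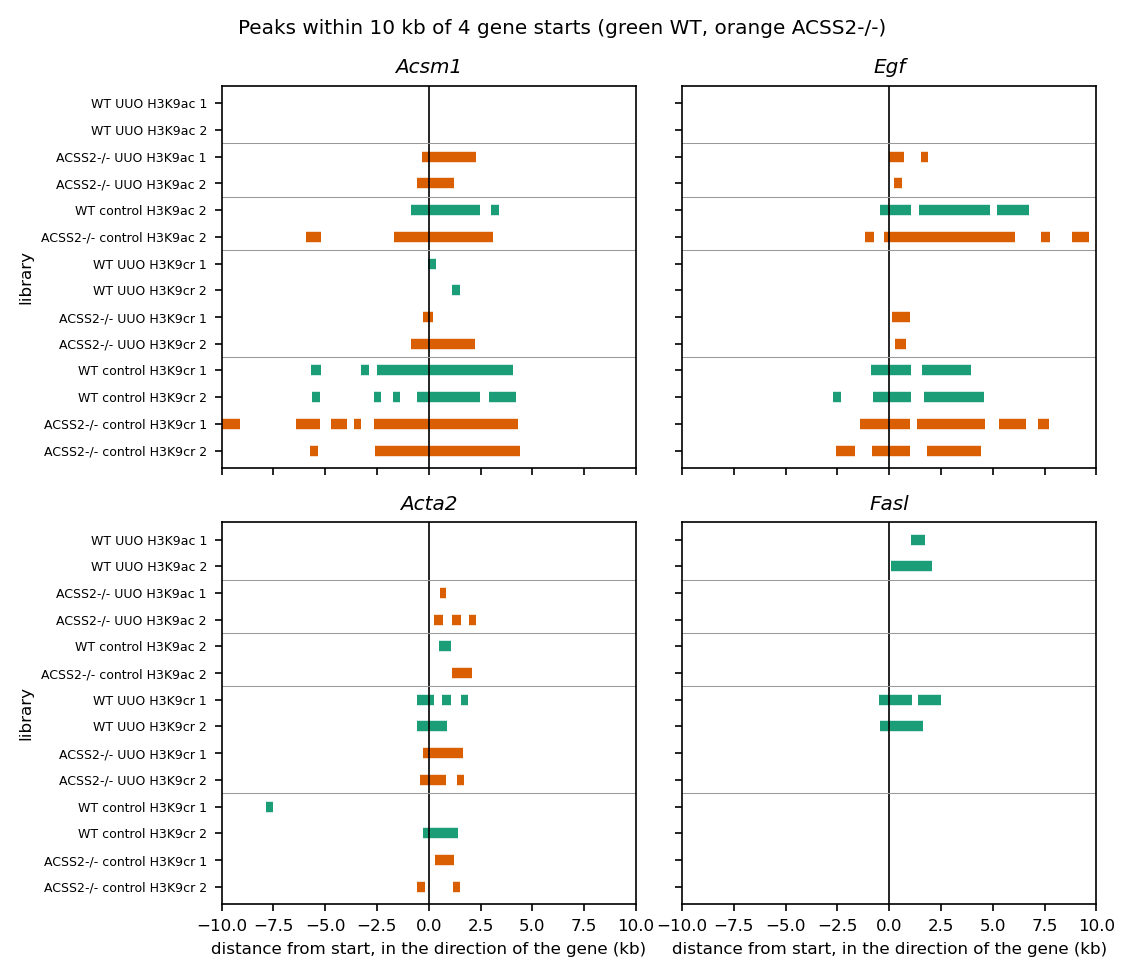
Peaks (bars) within 10 kb of the starts of Acsm1, Egf, Acta2 and Fasl in the 14 libraries, as distance in kb from the start in the direction of the gene, with WT in green and ACSS2-/- in orange. At Egf both WT UUO rows are empty in both marks and the control rows hold the longest bars, and at Fasl the WT UUO rows alone hold bars.

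Metabolic enzymes of the tubule were among the protein-coding members named for long peaks. Acsm1 had H3K9ac peaks of 2590 and 1790 bp in ACSS2-/- UUO and of 3347 and 4801 bp in the WT and ACSS2-/- controls, and the nearest WT UUO peak lay 57577 bp away. H3K9cr at Acsm1 was 405 and 364 bp long in WT UUO and 494 and 3091 bp in ACSS2-/- UUO, against 3032 to 6970 bp in the controls. Obstructed WT kidneys thus held a short H3K9cr peak at Acsm1 and no H3K9ac peak.

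Acox2, a peroxisomal oxidase of branched fatty acids and bile acid precursors, had 1003 and 893 bp, and Abat, which breaks down the amino acid GABA, 1222 and 1519 bp. Cyp24a1, which inactivates vitamin D, had 1235 and 861 bp and was marked in both controls, at 2384 and 2244 bp. Cyp2d26 and Cyp2w1, of the cytochrome P450 family, had shorter peaks, from 298 to 417 bp. Thus 3 of 28 P450 genes with a peak (10.7%) were marked only in ACSS2-/- UUO, beside 1.75% of all genes with a peak. Of 27 fatty acid oxidation genes with a peak, 24 were marked in all 4 libraries and Acox2 alone was marked only in ACSS2-/- UUO. Acsm1, Acox2, Abat and Cyp24a1 stayed marked only in ACSS2-/- UUO with equal numbers of peaks, and both other P450 genes did not. All 34 genes of histone acylation and acyl-CoA supply with a peak were marked in all 4 libraries.

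Among 107 cytokine, chemokine and receptor genes with H3K9ac in at least 1 of the 4 libraries, 6 (5.61%) were marked only in ACSS2-/- UUO. The share over all genes with a peak was 1.75%. Of these 107 genes, 63 were marked in all 4 libraries and 1, Fasl, only in WT UUO. Il18 had H3K9ac peaks of 767 and 441 bp in ACSS2-/- UUO and 403 and 1188 bp in the controls. H3K9cr at Il18 was present in all 8 libraries, from 748 to 1318 bp, and in obstructed kidneys it was 930 and 926 bp in WT and 808 and 907 bp in ACSS2-/-. Bco2 and Tex12 lie at the same peak.

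Il1r2, a decoy receptor that binds IL-1 without signalling, had H3K9ac peaks of 512 and 735 bp in ACSS2-/- UUO and H3K9cr in all 8 libraries. Cx3cr1, the fractalkine receptor of monocytes and macrophages, had 501 and 941 bp. Il3ra, a receptor subunit of IL-3, had 400 and 601 bp, Ccl27a, a chemokine, 897 and 982 bp, and Tnfrsf10b, a death receptor for TRAIL, 341 and 863 bp. With equal numbers of peaks Il1r2, Cx3cr1 and Ccl27a stayed marked only in ACSS2-/- UUO and Il18, Il3ra and Tnfrsf10b did not. For the cytokine IL-1β itself, Il1b had no H3K9ac peak in any of the 6 libraries. Il1b carried H3K9cr in WT UUO (390 and 513 bp) and in 1 ACSS2-/- UUO library (1645 bp). Il1r1, the signalling receptor of IL-1, had H3K9ac in replicate 2 of each genotype, at 549 bp in WT UUO and 993 bp in ACSS2-/- UUO, and in neither replicate 1.

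Myeloid markers gave no separation by library, with H3K9ac at 11 and 14 of 23 in WT UUO and 12 and 17 in ACSS2-/- UUO, against 8 in each control. Lymphocyte markers varied most between replicates of 1 group, with H3K9ac at 3 and 14 of 26 in WT UUO and 7 and 14 in ACSS2-/- UUO. In H3K9cr the same 26 genes counted 20 and 20 in WT UUO, 11 and 10 in ACSS2-/- UUO and 4 to 6 in the controls, without overlap. Of all autosomal genes, 40.5% and 38.7% carried H3K9cr in WT UUO, 40.1% and 36.9% in ACSS2-/- UUO and 37.7% to 41.6% in the controls. Endothelial markers ranged from 11 to 13 of 16 in both genotypes for H3K9ac.

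**Figure D3:**
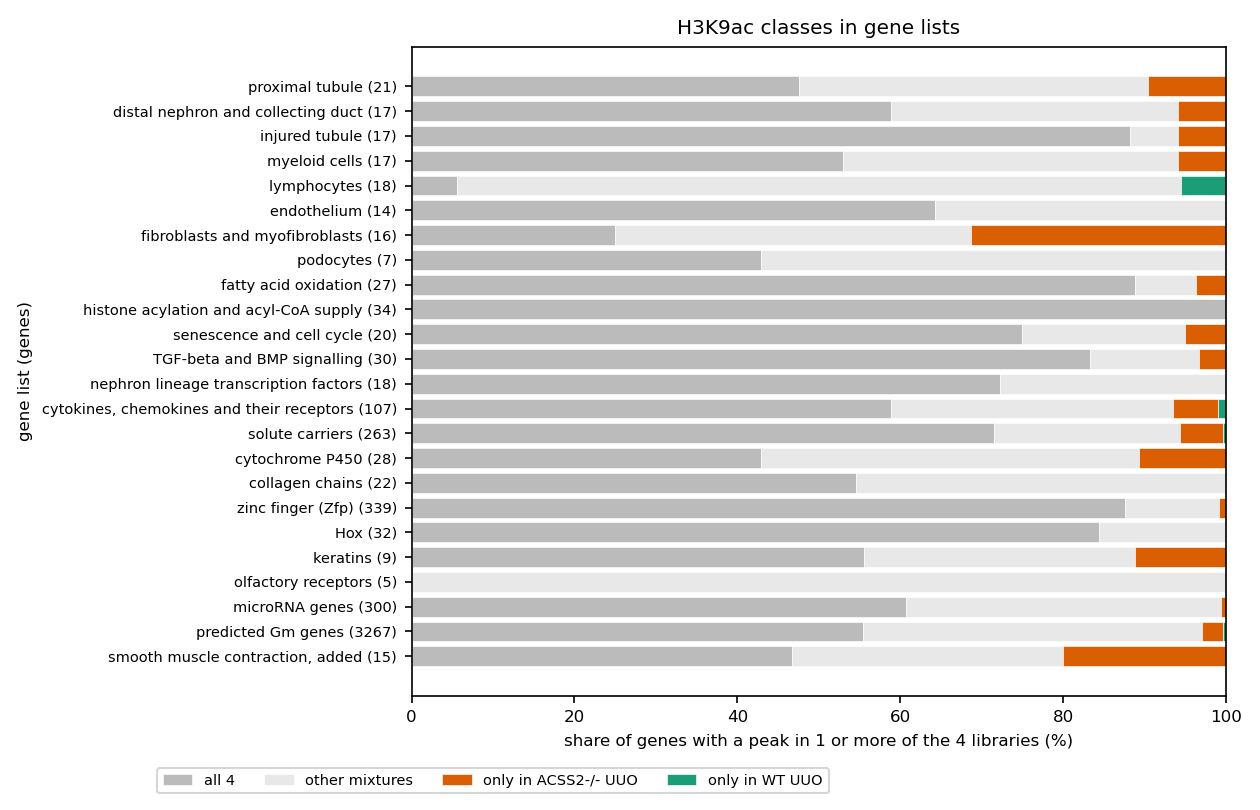
Share (%) of the genes of each list, of those with H3K9ac in 1 or more of the 4 UUO libraries (number in brackets), that were marked in all 4 libraries, only in ACSS2-/- UUO, only in WT UUO, or in another mixture. The fibroblast and myofibroblast list has the longest orange bar, 5 of 16 genes. Several lists have none, among them histone acylation and acyl-CoA supply, endothelium, collagen chains and Hox.

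Other members with long peaks had varied roles. Sod3, the extracellular superoxide dismutase, had H3K9ac peaks of 999 and 1103 bp in ACSS2-/- UUO. Trf, the iron carrier transferrin, had 1490 and 1062 bp, and Gca, a calcium-binding protein of leukocytes, 1698 and 1049 bp. Mmp17, a membrane-anchored metalloproteinase, had 1120 and 1482 bp, Ephb6, an ephrin receptor without kinase activity, 1414 and 868 bp, and Polq, a DNA repair polymerase, 913 and 1545 bp. Each of these 6 genes carried H3K9cr in all 8 libraries and H3K9ac in both controls. Cnnm1, of a family of magnesium transporters, had 910 and 1499 bp and Zfp970, a zinc finger gene, 814 and 922 bp.

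Smad9, a transducer of BMP signals, was the only 1 of 30 genes of TGF-beta and BMP signalling with a peak that was marked only in ACSS2-/- UUO, at 766 and 852 bp, and a WT UUO peak lay 4706 bp from it. Of 339 zinc finger (Zfp) genes 3 were members, Zfp423, Zfp750 and Zfp970, which is 0.885%. The share over all genes with a peak was 1.75%. No Hox gene and no nephron lineage factor was a member, of 32 and 18 with a peak. For lists of this size that is near the share over all genes. Krt1, an epidermal keratin, and the microRNA genes Mir6910 and Mir6962 were members as well.

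Several long peaks near members belonged to the edge of the window. At Nfkb2, Nedd4l, Tmem39b and Prr19 the ACSS2-/- UUO peaks began 2795 to 2954 bp from the gene end, just inside 3 kb, and the nearest WT UUO peak lay just outside, at 3064 to 3271 bp. Nfkb2 encodes a subunit of NF-κB and Nedd4l a ubiquitin ligase of the sodium channel, and with peaks of 2465 and 2932 bp and of 2434 and 2260 bp they ranked among the longest of the protein-coding members. Amigo3 and Hexim2 also had a WT UUO peak within 5 kb, at 3192 and 4810 bp. Of all 315 genes, 51 had a WT UUO peak between 3 and 5 kb and 89 between 3 and 10 kb, so that 226 had none within 10 kb. The median distance to the nearest WT UUO peak was 20422 bp. At the limit, the farther ACSS2-/- UUO peak of Gm14175 lay 2999 bp away, and Gm35934, at 3028 bp, was just outside.

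Peaks at the members were short. The median length of the longest peak at the 315 genes was 496 bp in ACSS2-/- UUO replicate 1 and 691 bp in replicate 2, against 1402 and 1942 bp at the 13670 genes marked in all 4 libraries. The 860 regions had a median width of 761 bp, against 1939 bp for regions found in all 4 libraries and 820 bp for all 28666. A gene end was covered by 13.1% of them, against 71.9% of regions in all 4 and 33.5% of all regions. Of the 315 genes 195 (61.9%) were protein-coding and 91 (28.9%) lncRNA, against 78.8% and 14.8% of the genes marked in all 4. Genes that share a peak fell into 277 loci, 34 of which held several members.

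**Figure D4:**
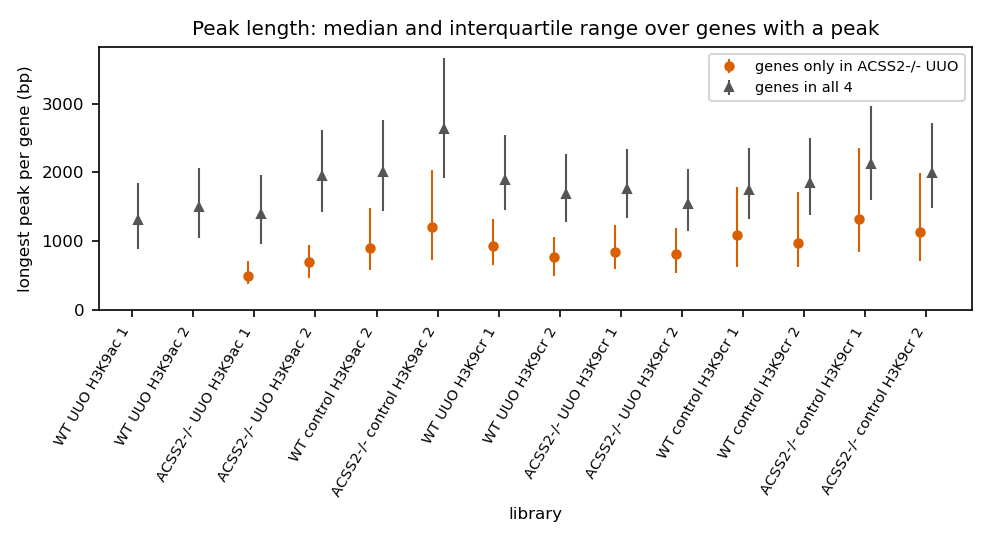
Longest peak per gene (bp) at the genes marked only in ACSS2-/- UUO (orange) and at those marked in all 4 UUO libraries (grey), over the genes with a peak in each of the 14 libraries, as median (symbol) and interquartile range (bar). The orange medians lie below the grey ones in each library that holds such peaks, at 496 and 691 bp in ACSS2-/- UUO and at up to 1318 bp in the controls.

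Away from gene ends, 407 of the 860 regions lay over 3 kb from any gene end and 332 of these (81.6%) were inside a gene. That is near the background, as 79.0% of all regions so far from a gene end were inside a gene. Of those found in all 4 libraries 83.5% were. Ranked by the shorter of its peaks in both ACSS2-/- UUO libraries, the first was inside Dao, a D-amino acid oxidase of the proximal tubule, at chr5:114003870-114005601 (mm10), with peaks of 1700 and 1719 bp in ACSS2-/- UUO and none in WT UUO. Both controls held it at 1928 and 1942 bp, and H3K9cr was present in all 8 libraries, from 1198 to 1991 bp. A region inside Ggt1, the brush border enzyme that cleaves glutathione, lay at chr10:75567917-75569756, with 1773 and 1443 bp. Regions inside Amotl2, of the angiomotin family, at chr9:102724331-102726272, inside the phosphatase gene Ptpn1 at chr2:167942513-167943808 and inside Lipe, the hormone-sensitive lipase, at chr7:25390133-25391258, also carried H3K9cr in all 8 libraries. Ptpn1 and Tns3 each were nearest to 3 such regions, and Rbpms and Gm35290 to 4.

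The mark at these genes outside the obstructed kidneys was frequent in both genotypes. H3K9ac was found at 74.6% of the 315 genes in the WT control and at 90.5% in the ACSS2-/- control, at 59 genes in the ACSS2-/- control alone, at 9 in the WT control alone and at 21 in neither. The ACSS2-/- control list was also the longer, with 32142 against 25127 autosomal peaks, and with 1 library each there is no test. Of the 226 genes marked in both controls, 119 (52.7%) had longer peaks in both controls than in both ACSS2-/- UUO libraries and 0 had shorter ones. At the genes marked in all 4 UUO libraries that share was 52.2%, so that it is near the background. Only 3 of the 315 genes had no peak of either mark in any other library.

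The share of these genes with H3K9cr, which the rule did not use, overlapped between the genotypes. In WT UUO 82.2% and 79.4% of the 315 genes had an H3K9cr peak and in ACSS2-/- UUO 85.4% and 75.9%, so that the groups overlapped. The difference was -0.16 percentage points (exact two-sided permutation test, p = 1, n = 2 and 2), and over all 8 libraries, with genotype permuted within condition, 1.51 percentage points (p = 0.667, smallest possible 0.0556). H3K9cr was present in both WT UUO libraries at 222 of the 315 genes (70.5%) and in none at 28. For the 860 regions the shares were 75.3% and 68.0% in WT UUO and 77.1% and 66.4% in ACSS2-/- UUO (difference 0.06 percentage points, exact permutation p = 1). With 2 libraries a group, a difference of several points could not have been told from the spread, which was 6.73 points (SD) in ACSS2-/- UUO at the genes. All 12 tests of H3K9cr shares had a Benjamini-Hochberg adjusted p of at least 0.933.

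**Figure D5:**
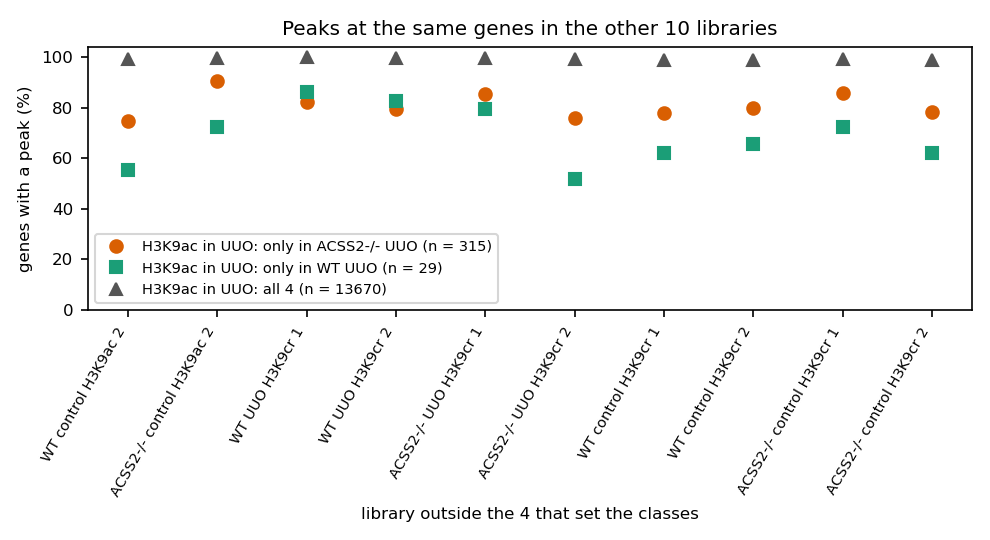
Share (%) of genes with a peak in each of the 10 libraries that the rule did not use, for genes marked only in ACSS2-/- UUO (orange circles), only in WT UUO (green squares) and in all 4 UUO libraries (grey triangles). The orange circles lie between 74.6% and 90.5%, and the green squares drop to 51.7% in ACSS2-/- UUO H3K9cr replicate 2.

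The 29 genes marked only in WT UUO were few and held short peaks as well, with a median of 436 and 539 bp. Fasl had H3K9ac peaks of 677 and 1983 bp and H3K9cr peaks of 1579 and 2057 bp in WT UUO, and no peak of either mark in the other libraries. Rgs1, a regulator of G protein signals in lymphocytes, had H3K9ac at 444 and 799 bp, H3K9cr at 988 and 1124 bp in WT UUO and 315 bp in 1 ACSS2-/- UUO library, and no peak in the controls. Fasl is itself among the 26 lymphocyte markers whose H3K9cr counts are given above, and Rgs1 is not. The part of lymphocytes was not tested. Tmem108, a transmembrane protein, and Wdr63, a WD repeat protein, also had H3K9cr in both WT UUO and neither ACSS2-/- UUO library, and each had some H3K9cr in controls.

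Agt, angiotensinogen, had H3K9ac at 396 and 456 bp, Slc13a5, a citrate transporter, at 609 and 681 bp, and Sema4a, a semaphorin of immune cells, at 502 and 426 bp. Sorbs3, which encodes the adhesion protein vinexin, had the longest peak of the 29 genes, of 2986 bp in replicate 1 and 1912 bp in replicate 2, but they began 2841 bp from the gene end and an ACSS2-/- UUO peak lay at 3705 bp. Arhgef10l, Cpsf4l, Sdk1 and 1500009L16Rik had shorter peaks, from 351 to 867 bp. Of the 106 regions, the first by the same ranking away from gene ends lay inside Tg, thyroglobulin, and Sla, an adaptor of lymphocyte receptors, at chr15:66800542-66802831, with 706 and 1981 bp, H3K9cr in both WT UUO libraries and, at 805 bp, in 1 ACSS2-/- UUO library, and no peak in the controls. Others lay inside Mitf at chr6:97815003-97815766 and inside Atoh8 at chr6:72215066-72216233.

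At the 29 genes H3K9cr was present at 86.2% and 82.8% in WT UUO and at 79.3% and 51.7% in ACSS2-/- UUO, a difference of -19.0 percentage points, and at the 106 regions at 79.2% and 77.4% against 64.2% and 43.4%, a difference of -24.5 percentage points. In both cases the groups did not overlap and the exact permutation test gave p = 0.333, the smallest it allows with 2 against 2 libraries. Of all 28666 regions, 71.5% and 66.8% had H3K9cr in WT UUO and 69.5% and 61.9% in ACSS2-/- UUO. For all autosomal genes the shares were 40.5% and 38.7% against 40.1% and 36.9%. Relative to all genes or all regions the differences were -17.8 and -21.1 percentage points. The rule chose these members by H3K9ac in obstructed kidneys, so the differences are not independent of it. ACSS2-/- UUO H3K9cr replicate 2, the lowest, was also the shortest H3K9cr list, with 27023 autosomal peaks. Without it the difference was -5.17 percentage points at the genes (exact permutation p = 0.667) and -14.2 at the regions (p = 0.333). With H3K9cr lists of equal numbers of peaks it was -13.8 points at the genes (exact permutation p = 0.667) and -20.8 at the regions (p = 0.333).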

How the data were processed

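Peaks were analysed for 14 libraries. According to the study's methods, the authors discarded reads holding adapter or poor base calls, mapped those kept with Bowtie2, dropped organelle reads, duplicates and reads of mapping quality under 30, and called peaks with MACS2 at a q-value of 0.05. The submitters' processing notes name Bowtie2, MACS2, ChIPseeker and mm10, and versions and the MACS2 control are not given in the sources used here. The deposited files hold peak positions only, 1 list per library, with no score, signal or read count, so that depth is unknown and a peak that just misses the threshold counts as absent.

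Genes and promoters came from RefSeq on GRCm38.p6, without strand for genes. Overlap of at least 1 bp was counted with Python 3.11.15, numpy 2.4.6 and pandas 2.3.3. The code was tested on simulated data, where 100% of 200 planted genes were recovered, and in 0 of 14 libraries did counts differ from bedtools 2.31.1. Shares were compared by exact permutation over libraries in both directions. The members and lists were chosen with earlier results of these data known. Genes named were the 20 protein-coding members and 10 protein-coding WT-only genes with the longest peaks (the shorter of both libraries), those in a list, and those with both marks, apart from items not reported here. The DESeq2 test of the study needs read counts and was not made. Alternatives were windows of 1 kb and the whole gene, 50% overlap, equal numbers of peaks, and leaving out each library.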

Additional observations from a re-analysis of the deposited data

Results flagged for a closer look

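At the 106 regions with H3K9ac only in WT UUO, the genotype difference in the share with H3K9cr went one way in obstructed and the other way in control kidneys. H3K9cr was present at 79.2% and 77.4% of the regions in WT UUO and at 64.2% and 43.4% in ACSS2-/- UUO, a difference of -24.5 percentage points. In control kidneys it was present at 54.7% and 55.7% in WT and at 70.8% and 67.9% in ACSS2-/-, a difference of 14.2 percentage points. The change of the difference was -38.7 percentage points (exact permutation of genotype within condition, 36 arrangements, p = 0.0556, the smallest it allows). H3K9cr lists were longest in ACSS2-/- control, with 44310 and 36703 autosomal peaks, and shortest in ACSS2-/- UUO replicate 2, with 27023. With H3K9cr lists cut to equal numbers of peaks, chosen after seeing the data, the difference was -20.8 percentage points in obstructed and 4.25 in control kidneys, and its change was -25 (exact permutation p = 0.0556). Without 1 library the change ranged from -49.1 to -28.3, the smallest without ACSS2-/- UUO replicate 2. The 106 regions were chosen by their H3K9ac in WT and ACSS2-/- obstructed kidneys, and control kidneys had no part in that choice. The difference in obstructed kidneys, and so its change, is therefore not independent of the choice. The permutation p-values cannot tell an effect of genotype from an effect of the choice, and the part of the choice was not tested.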

How the results depend on the processing

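Cutting each H3K9ac list to equal numbers of peaks gave 205 genes and 457 regions only in ACSS2-/- UUO and 105 genes and 260 regions only in WT UUO. Protein-coding genes alone gave 195 and 16, an overlap of 50% gave 45 genes only in WT UUO, and requiring no peak of the other genotype within 10 kb, an alternative chosen after seeing the data, gave 15. Promoters of 300 bp, also added, gave 369 genes only in ACSS2-/- UUO, 55 of them shared with the 315.

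Leaving out 1 library loosens the rule. The counts then ranged from 527 to 1692 genes and from 1240 to 8788 regions only in ACSS2-/- UUO, the highest without ACSS2-/- UUO replicate 1. Only in WT UUO they ranged from 41 to 461 genes, the highest without ACSS2-/- UUO replicate 2, and from 149 to 2303 regions, the highest without WT UUO replicate 1. The difference in covered length between ACSS2-/- UUO and WT UUO, 5.52 Mb with all libraries (exact permutation p = 0.667), ranged from -0.18 Mb, without ACSS2-/- UUO replicate 2, to 11.2 Mb.

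The H3K9cr share of the 315 genes differed by -0.16 percentage points between ACSS2-/- UUO and WT UUO, by 0.96 relative to all genes and by 4.13 with H3K9cr lists of equal numbers of peaks, and it ranged from -4.92 to 4.60 without 1 library. Over both conditions this difference ranged from -0.87 to 3.89, and that of UUO minus control, 0.24 with all peaks, from -2.14 to 2.62 without 1 library, while lists of equal numbers of peaks gave 6.27 (exact p = 0.0556). For the 860 regions the genotype difference in UUO ranged from -5.29 to 5.41. For the 29 genes and the 106 regions only in WT UUO the genotype difference in UUO ranged from -32.8 to -5.17 and from -34.9 to -14.2. For these regions the genotype difference over both conditions ranged from -10.4 to 0 and UUO minus control from -1.42 to 8.96. None of these tests passed 0.05 in the design, which allows no p under 0.333 in UUO and none under 0.0556 over both conditions. With the replicate block (numbers that the labels do not say pair mice) the smallest possible p was 0.5, the difference in peak number stayed at 3602.5 (exact p = 0.5), and no call changed. Read depth, peak height and enrichment are unknown from the lists.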
